A study of Mus musculus with 4 samples.

Results

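Homeobox genes of the Hox, ParaHox and NK classes were examined in mouse embryonic stem cells (ESCs) after deletion of Arid1a. The rule for membership uses gene symbols and no measured value, though it was set with earlier results of these data known: Hoxa to Hoxd, Cdx, Gsx, Evx, Meox, Mnx, Dlx, Nkx, Emx, En, Gbx, Lbx, Tlx, Vax and Barx genes with a number, plus Hhex and Hlx, with Cdx1, Cdx2 and Evx1 left out by the rule. Of the 14382 genes in the deposited table, 36 matched, and RefSeq lists 83 such genes for the mouse, so 47 were not analysed here. The 36 are 19 Hox genes (8 of the 11 of Hox A, 7 of the 10 of Hox B, 2 of the 9 of Hox C and 2 of the 9 of Hox D), the ParaHox genes Gsx1 and Cdx4, 4 genes of the En and Gbx families, and 11 NK and NK-like genes.

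The cells carry floxed alleles of Arid1a together with CreERT2, a Cre recombinase that becomes active when 4-hydroxytamoxifen (4-OHT) binds it, and both groups share this genotype, Arid1a f/f:CreERT2. One group received ethanol and the other 1 µM 4-OHT for 24 hours, cells were then passaged, and RNA was collected 72 hours after treatment from 2 libraries per group. Cells were kept with serum and LIF on irradiated mouse embryonic fibroblast feeders, so each library can hold feeder RNA. No line without the floxed alleles was part of the comparison, so an effect of 4-OHT or of Cre itself cannot be told apart from the loss of Arid1a, nor can a difference in library kit, since 1 of a pair of kits was used for each library and the labels do not say which.

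Hox genes encode transcription factors that give cells along the head-to-tail axis their position. They lie in 4 clusters in which low-numbered genes, at one end, are used first and farthest to the front, and high-numbered genes, at the other end, later and farther back. In ESCs most Hox, ParaHox and NK loci are held silent or nearly so by Polycomb proteins until differentiation. ARID1A is a subunit of BAF, a chromatin remodelling complex that moves nucleosomes and acts against Polycomb at some loci.

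The table gives each group's mean level in CPM (reads scaled to a common library total), from which the whole reads of both libraries were recovered. Within each group they are named A and B, an arbitrary order since the columns carry no replicate numbers, and their totals ran from 6188378 to 7012664 reads. A read was worth 0.142 to 0.159 CPM, and a library with 0 reads of a gene leaves room for at most 0.426 to 0.477 CPM (the worth of 3 reads, for counting error alone). Arid1a was at 517 and 502 CPM in the ethanol libraries and at 241 and 213 CPM with 4-OHT, a log2 fold change of -1.16 (SE 0.066, limma adjusted p = 7.27e-06). Nothing states that the libraries came from separate cultures, so the spread behind each p-value is that between libraries and could be technical.

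Where homeobox genes passed the threshold of the main test, they rose. Gsx1, Nkx2-3, Nkx6-2, En2, 5 Hox A genes and 6 Hox B genes were higher with 4-OHT, which makes 15 of the 36, while 0 fell and 21 missed the threshold (limma on log2(CPM + 1), adjusted p under 0.05 over all 14376 genes tested), whereas 5.24% of all genes tested rose and 4.22% fell. Among the 4689 genes with a mean under 10 CPM, which holds 30 of the 36, 5.1% rose and 1.64% fell. The median log2 fold change was 0.45 over the 36 and -0.0016 over all genes tested. Both libraries with 4-OHT lay above both ethanol libraries for 20 of the 36 genes and below them for 4, beside 26.4% and 25.7% of all genes. The quasi-likelihood test of edgeR on the recovered reads could test 27 of the 36, and 14 of these rose and 0 fell, beside 8.12% and 7.63% of its 12961 genes (9.22% and 4.83% of those with a mean under 10 CPM). More cells that express a gene and more RNA per cell cannot be told apart in such bulk samples. The 47 genes not analysed here are no part of these counts, and a gene that passes a filter on low values only through the group in which it is high has to differ, so the counts describe the measured genes and not the whole class. Without either 4-OHT library limma called 0 of the 36 (and 0 of all genes), while edgeR then called 13 (without A) and 15 (without B) higher. DESeq2 called 7 higher and 0 lower, without Hoxa5, Hoxa7, Hoxb1, Hoxb3, Hoxb9 and En2 (DESeq2 adjusted p from 0.0752 to 0.288), and it gave Hoxa9 and Hoxb4 no adjusted p.

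**Figure D1:**
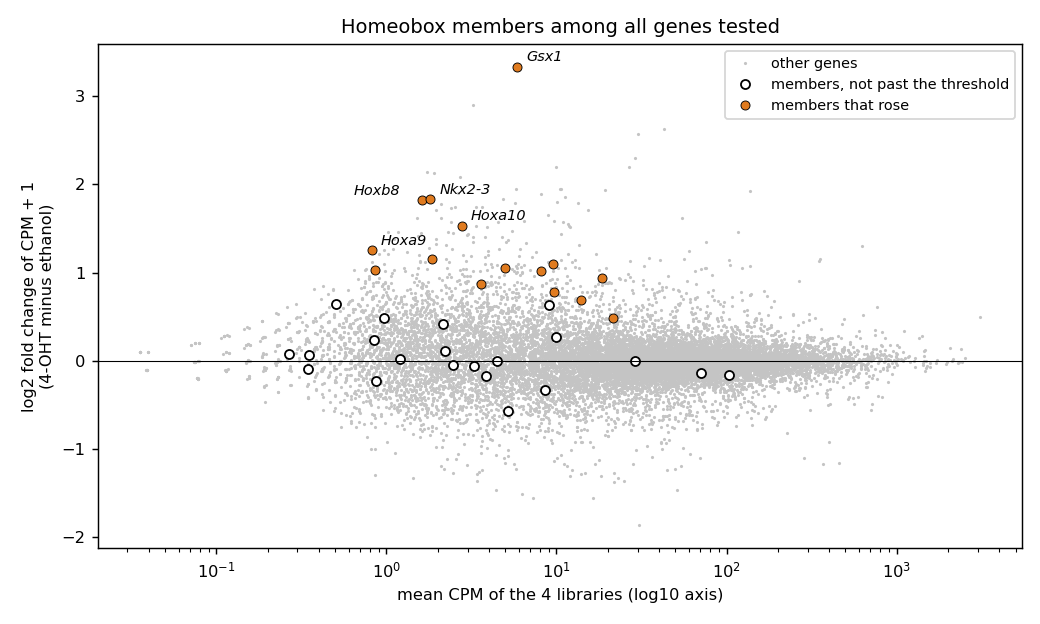
Vertical axis, log2(CPM + 1) with 4-OHT minus that in ethanol; horizontal axis, mean CPM over all 4 libraries (log10), for the tested genes with at least 1 read. The 15 homeobox genes that rose (orange) all had mean levels under 30 CPM, and the 21 that did not pass (white) lie between -0.57 and 0.64. Gsx1, at 3.33, is the highest point of all genes.

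Gsx1, a ParaHox gene of neural progenitors, had the largest log2 fold change of any gene tested. Ethanol libraries held 2 and 1 of its reads, those with 4-OHT 91 and 63, or 0.233 ± 0.109 against 11.5 ± 2.07 CPM (SD, n = 2 per group). The read ratio was 49.5 (95% counting interval 16.6 to 243) and the log2 fold change 3.33 (SE 0.21, limma adjusted p = 1.78e-05). Gsx1 may have passed a filter on low values only through its 4-OHT reads, and the part of such a filter in its ratio was not tested. Per kb of exon its level went from 0.131 to 6.47 CPM, that is from place 29 to place 8 among the 36 genes. Cdx4, the other measured ParaHox gene, a regulator of posterior Hox genes, had 53 and 61 reads in ethanol against 84 and 62 with 4-OHT. Its groups came close to each other, at 9.52 CPM in the higher ethanol library and 9.85 CPM in the lower 4-OHT library, and it did not pass (ratio 1.24, interval 0.961 to 1.59, limma adjusted p = 0.384).

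The upstream sequences of the 4 genes with the largest changes among those with a RefSeq promoter entry are shown because these loci had under 1 CPM in ethanol and moved furthest. Each is the 250 bases before the annotated start (RefSeq, GRCm38.p6), 5′ to 3′ on the gene's strand, with CpG dinucleotides in capitals. They lie at chr5:147188446-147188695 (Gsx1, plus strand), chr19:43612075-43612324 (Nkx2-3, plus strand), chr11:96281655-96281904 (Hoxb8, plus strand) and chr6:52240855-52241104 (Hoxa10, minus strand, the first of 2 entries).
Gsx1: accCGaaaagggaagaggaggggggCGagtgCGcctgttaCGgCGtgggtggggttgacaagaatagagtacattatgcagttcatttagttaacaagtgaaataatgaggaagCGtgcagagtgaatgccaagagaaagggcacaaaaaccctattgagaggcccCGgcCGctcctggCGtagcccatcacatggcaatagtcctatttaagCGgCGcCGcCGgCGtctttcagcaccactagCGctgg
Nkx2-3: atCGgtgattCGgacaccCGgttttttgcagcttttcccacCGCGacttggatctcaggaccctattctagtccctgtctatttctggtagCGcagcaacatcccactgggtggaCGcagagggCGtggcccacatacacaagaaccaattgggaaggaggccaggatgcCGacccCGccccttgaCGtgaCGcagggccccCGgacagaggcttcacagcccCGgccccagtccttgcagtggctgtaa
Hoxb8: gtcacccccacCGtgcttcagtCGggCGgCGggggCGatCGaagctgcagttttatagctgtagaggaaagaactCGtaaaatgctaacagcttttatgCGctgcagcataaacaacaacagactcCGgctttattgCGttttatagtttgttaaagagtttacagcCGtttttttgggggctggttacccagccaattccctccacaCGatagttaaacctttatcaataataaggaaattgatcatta
Hoxa10: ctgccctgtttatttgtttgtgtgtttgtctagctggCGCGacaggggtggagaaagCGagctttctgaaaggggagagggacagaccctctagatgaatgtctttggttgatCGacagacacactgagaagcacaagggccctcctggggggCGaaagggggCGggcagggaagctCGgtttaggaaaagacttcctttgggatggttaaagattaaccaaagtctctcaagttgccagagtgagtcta
These windows held 15, 14, 12 and 7 CpG, in the order printed, beside a median of 16 (quartiles 9 and 23) over the 11353 tested genes with an entry. A comparison of base composition over the whole class is void, because 23 of the 36 genes (63.9%) had an entry.

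Among the Hox B genes, on chromosome 11 (mm10), 6 of the 7 measured rose and 0 fell (beside 5.24% and 4.22% of all genes). The summed level of the Hox B genes went from 21.5 and 20.3 CPM in the ethanol libraries to 50.03 and 42.9 CPM with 4-OHT. Hoxb8, a mid-cluster gene, had 1 and 1 reads in ethanol against 20 and 21 with 4-OHT. Both 4-OHT libraries were thus far above both ethanol libraries, at 3.09 ± 0.350 against 0.155 ± 0.00071 CPM (ratio 19.8, interval 5.14 to 169; log2 fold change 1.82, SE 0.21, limma adjusted p = 0.000621). Hoxb4, which lies between Hoxb8 and the anterior end, had 0 and 3 reads in ethanol against 12 and 8 with 4-OHT. It passed at the pseudocount of 1 (ratio 6.43, interval 1.91 to 33.8; log2 fold change 1.03, SE 0.25, limma adjusted p = 0.0295), but not at a pseudocount of 0.1 (limma adjusted p = 0.0742) or without ethanol library A (limma adjusted p = 0.138), and edgeR left it out as too low. Hoxb9 had 4 and 6 reads in ethanol against 19 and 20 with 4-OHT. It is the first of the genes related to Drosophila Abdominal-B, and the groups did not overlap (0.778 ± 0.223 and 2.94 ± 0.338 CPM; ratio 3.76, interval 1.85 to 8.46; log2 fold change 1.15, SE 0.22, limma adjusted p = 0.00811). Without ethanol library A, edgeR no longer called Hoxb9 (edgeR adjusted p = 0.0595).

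The anterior Hox B genes, which are used in the hindbrain, were already present in ethanol. Hoxb1, a gene of rhombomere 4 and a direct target of retinoic acid receptors, had 72 and 63 reads in ethanol against 134 and 101 with 4-OHT (ratio 1.68, interval 1.35 to 2.09; limma adjusted p = 0.0180). Hoxb2 had 39 and 34 reads against 104 and 75, or 5.67 ± 0.524 against 13.4 ± 2.02 CPM (ratio 2.37, interval 1.79 to 3.15; log2 fold change 1.10, SE 0.18, limma adjusted p = 0.00349). Hoxb3 had 20 and 17 reads against 57 and 38, or 2.88 ± 0.317 against 7.07 ± 1.46 CPM (ratio 2.48, interval 1.68 to 3.73; log2 fold change 1.05, SE 0.21, limma adjusted p = 0.01004). In each of these 3 genes the 4-OHT libraries lay above both ethanol libraries, and library A was the higher of the 4-OHT pair. Hoxb13, set apart from its cluster by a long gap and used at the tail end of the embryo, had 3 and 6 reads in ethanol against 6 and 7 with 4-OHT, with overlapping groups (ratio 1.39, interval 0.551 to 3.70; limma adjusted p = 0.605).

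Of the 8 measured Hox A genes, on chromosome 6, 5 rose and 0 fell (beside 5.24% and 4.22% of all genes). At the posterior end, Hoxa10 had 6 and 6 reads in ethanol against 29 and 32 with 4-OHT, or 0.933 ± 0.0043 against 4.604 ± 0.682 CPM (ratio 4.91, interval 2.62 to 10.0; log2 fold change 1.53, SE 0.21, limma adjusted p = 0.00143). Its neighbour Hoxa9, a gene of axial patterning and of blood stem cells, had 1 and 0 reads in ethanol against 12 and 9 with 4-OHT. It went from next to nothing to 1.57 ± 0.195 CPM (ratio 20.3, interval 3.26 to 838; log2 fold change 1.25, SE 0.22, limma adjusted p = 0.00564), and edgeR left it out as too low. Hoxa7 had 16 and 13 reads against 34 and 32 (ratio 2.20, interval 1.40 to 3.53; limma adjusted p = 0.0206), and Hoxa5, which acts in lung and skeletal patterning, had 43 and 45 against 81 and 85 (ratio 1.82, interval 1.40 to 2.39; limma adjusted p = 0.0146). Hoxa7, like Hoxb1 (limma adjusted p = 0.0566), lost its call in limma without ethanol library B (limma adjusted p = 0.0803), and Hoxa7 lost it in edgeR as well (edgeR adjusted p = 0.0964).

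Toward the anterior end of Hox A the genes did not move alike. Hoxa2, which specifies the second branchial arch, had 38 and 26 reads in ethanol against 98 and 54 with 4-OHT, or 4.97 ± 1.30 against 11.3 ± 3.78 CPM (ratio 2.29, interval 1.70 to 3.12; log2 fold change 1.02, SE 0.24, limma adjusted p = 0.0260). Its 4-OHT libraries differed from each other (13.9 and 8.58 CPM) but both exceeded the ethanol libraries (5.89 and 4.06 CPM), and the call was lost in limma without ethanol library B (limma adjusted p = 0.0612). Hoxa3 had 42 and 45 reads against 95 and 57 with no overlap of the groups, and did not pass in limma (ratio 1.69, interval 1.29 to 2.22; limma adjusted p = 0.0771), though edgeR called it higher (edgeR adjusted p = 0.00439, and 0.323 without 4-OHT library A). Hoxa4 had 11 and 16 reads against 16 and 15, with overlapping groups (ratio 1.11, interval 0.640 to 1.93; limma adjusted p = 0.813).

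**Figure D2:**
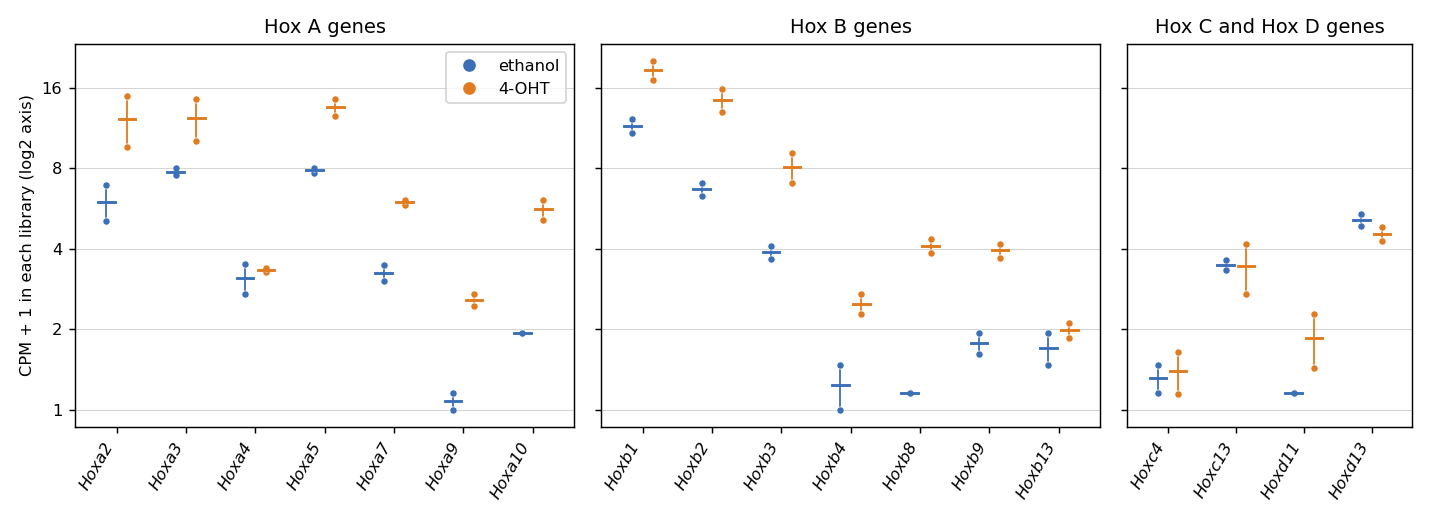
CPM + 1 of the Hox genes described singly (vertical axis, log2) in each library, ordered along each cluster by paralogue number; points are the 2 libraries of ethanol (blue) and of 4-OHT (orange), thick bars their mean. The 4-OHT points lie above the ethanol points for 6 genes of Hox A, 6 of Hox B and Hoxd11, and below them for Hoxd13.

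The 4 measured genes of the other clusters were low in all libraries and none passed (0 of 4 higher and 0 lower in limma, beside the 5.24% and 4.22% of all genes; edgeR tested 2 and called 0). Hoxc13, a hair and nail gene, had 17 and 15 reads in ethanol against 12 and 20 with 4-OHT (ratio 0.965, interval 0.572 to 1.63). Hoxd13, which patterns digits and the hind gut, had 25 and 28 reads against 23 and 24, a small gap between groups well inside counting error (ratio 0.856, interval 0.565 to 1.29). Hoxc4 had 1 and 3 reads against 1 and 4 (ratio 1.21, interval 0.260 to 6.08), an interval that leaves room for changes of several fold either way. Hoxd11 had 1 and 1 reads in ethanol against 3 and 8 with 4-OHT (ratio 5.31, interval 1.16 to 49.3; limma adjusted p = 0.169). As 14 of the 18 Hox C and Hox D genes were not analysed here, these 4 do not describe their clusters, and no difference between clusters was tested.

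Among the measured genes, the ratio of 4-OHT to ethanol differed along the clusters. In Hox A it was from 1.11 to 2.29 at paralogues 2 to 7, 20.3 at paralogue 9 and 4.91 at paralogue 10. The value of Hoxa9 rests on 1 ethanol read, its interval (3.26 to 838) overlaps that of Hoxa10 (2.62 to 10.0), and on the log2(CPM + 1) scale Hoxa10 changed more (1.53 against 1.25), so their order is not resolved. In Hox B it was 1.68 at paralogue 1, 2.37 and 2.48 at paralogues 2 and 3, 6.43 and 19.8 at paralogues 4 and 8, 3.76 at paralogue 9 and 1.39 at paralogue 13. The counting interval of Hoxb8 (5.14 to 169) lies above those of all 3 measured paralogues 13 and above those of Hoxb1, Hoxb2 and Hoxb3, while those of Hoxb4 and Hoxb9 overlap it. A gene near 0 in ethanol that passes a filter on low values only through its 4-OHT reads has to show a high ratio. Hoxa9, Hoxb4 and Hoxb8 had 0 to 3 reads in each ethanol library, and the part of such a filter in their ratios was not tested. By paralogue number, 5 of the 9 measured genes numbered 1 to 4 rose, 3 of the 3 numbered 5 to 8, and 3 of the 7 numbered 9 to 13, and the last 3 were Hoxa9, Hoxb9 and Hoxa10. Of all genes tested 5.24% rose, and of those with a mean under 10 CPM 5.1%. Of the 39 Hox genes 20 were not analysed here, among them Hoxa6, Hoxb5, Hoxb6, Hoxb7, Hoxc5, Hoxc6, Hoxc8 and Hoxd8, so these counts do not describe whole segments. Between the ends of Hox A and Hox B, 10 of the 12 measured genes with paralogue numbers 2 to 10 rose (beside the same shares), a range chosen after the values were seen. The summed level of these 12 genes went from 34.3 and 33.1 to 82.0 and 70.9 CPM.

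Position and starting level went together, so neither can be set apart from the other. Across genes, Spearman's rho between paralogue number and ratio was 0.571 in Hox A (7 genes) and 0.143 in Hox B (7 genes). Between the ethanol level per kb and the ratio it was -0.607 in Hox A and -0.786 in Hox B, and between paralogue number and ethanol level per kb -0.714 and -0.679. Without Hoxb13, a choice made with the values known, the values in Hox B (6 genes) were 0.829, -1 and -0.829, in the same order. Over Hox A and Hox B together (14 genes) they were 0.296, -0.745 and -0.700. These values describe genes that share the same 4 libraries, and the ratio has the ethanol reads as its divisor. As a difference in CPM per kb, the order was another: the gains were 3.54 for Hoxa2, 3.04 for Hoxb1, 3.02 for Hoxa5 and 2.20 for Hoxb2, beside 1.11 for Hoxb8 and 0.267 for Hoxa9. Hoxa2, Hoxb1, Hoxa5 and Hoxb2 thus gained more transcript per kb than Hoxb8 and Hoxa9, which gained more relative to what was there before.

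**Figure D3:**
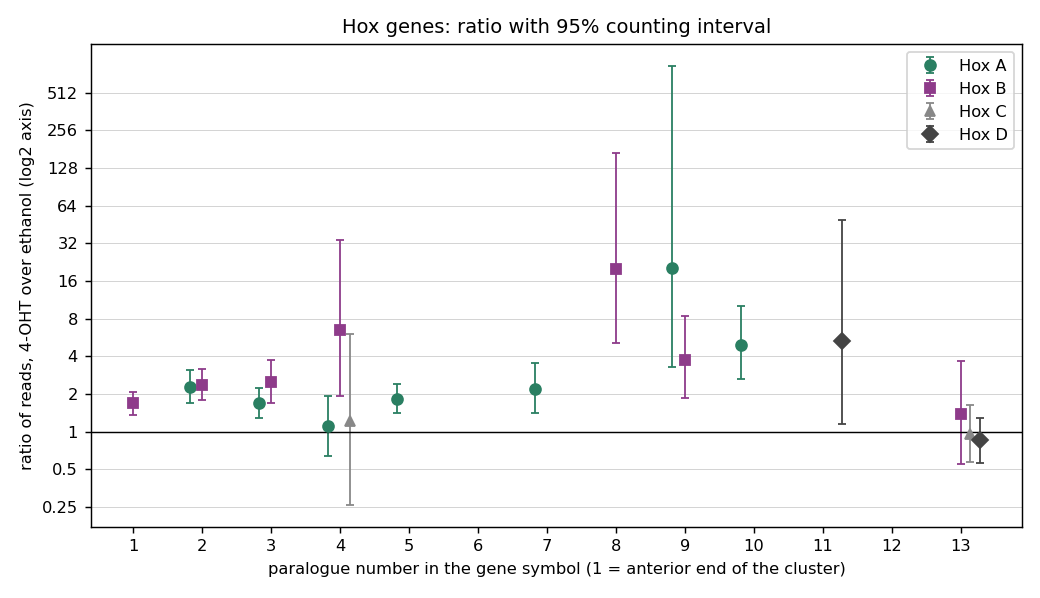
Ratio of reads, 4-OHT over ethanol, scaled to library size (vertical axis, log2), against the paralogue number in the symbol (horizontal axis) for the Hox genes described singly, by cluster. Bars are 95% counting intervals, which leave out the spread between libraries. Hoxb8 at 19.8 and Hoxa9 at 20.3 are the highest points, each with a wide interval, and the 3 genes numbered 13 lie between 0.856 and 1.39.

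Of the 11 NK and NK-like genes, 2 rose, 0 fell and 9 did not pass (beside 5.24% and 4.22% of all genes that rose and fell, and 5.1% and 1.64% of those with a mean under 10 CPM). Nkx2-3, a gene of gut and spleen mesoderm on chromosome 19, had 2 and 1 reads in ethanol against 22 and 23 with 4-OHT. The groups stood far apart, at 0.233 ± 0.109 and 3.39 ± 0.374 CPM (ratio 14.5, interval 4.65 to 72.8; log2 fold change 1.83, SE 0.21, limma adjusted p = 0.000634). As for Gsx1, the part of a filter on low values in the ratio of Nkx2-3 was not tested. Nkx6-2, a gene of ventral neural progenitors and oligodendrocytes, had 84 and 75 reads against 153 and 176. Its level went from 12.4 ± 0.933 to 24.9 ± 4.40 CPM (ratio 2.00, interval 1.65 to 2.43; limma adjusted p = 0.00334). The gain of Nkx6-2 was 6.56 CPM per kb and that of Gsx1, the next in order, 6.34. With SDs of 4.40 CPM (Nkx6-2) and 2.07 CPM (Gsx1) between the 4-OHT libraries, the order of these gains is not resolved. Nkx2-9, a ventral neural tube gene that responds to Hedgehog, went the other way without passing, with 48 and 35 reads in ethanol against 26 and 27 with 4-OHT (ratio 0.616, interval 0.428 to 0.880; limma adjusted p = 0.119, edgeR adjusted p = 0.0511). Its groups did not overlap, and edgeR called it lower without ethanol library B (edgeR adjusted p = 0.0363).

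Hhex, a gene of anterior endoderm, had 57 and 67 reads in ethanol against 50 and 49 with 4-OHT, all lower, and did not pass (ratio 0.771, interval 0.586 to 1.01; limma adjusted p = 0.274). Nkx1-2, a gene of the caudal epiblast from which the trunk grows, had 189 and 185 reads against 222 and 168. With overlapping groups at 29.1 CPM in each, it showed next to no difference (ratio 1.01, interval 0.871 to 1.16). Barx1, Barx2, Dlx3, Nkx6-3 and Tlx3 had between 1 and 20 reads in any library and ratios between 0.742 and 1.54, and each counting interval included 1.

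In the En and Gbx families, 1 of 4 genes rose and 0 fell (beside 5.24% and 4.22% of all genes). En2, a midbrain and hindbrain gene, had 122 and 105 reads in ethanol against 175 and 160 with 4-OHT (17.6 ± 1.79 and 25.2 ± 0.394 CPM; ratio 1.42, interval 1.1998 to 1.69; limma adjusted p = 0.0322), a call lost without ethanol library B (limma adjusted p = 0.143, edgeR adjusted p = 0.0932). En1, its paralogue, had 31 and 26 reads against 37 and 23, with overlapping groups (ratio 1.02, interval 0.695 to 1.49). Gbx2, an ESC gene downstream of LIF and STAT3 that also positions the midbrain-hindbrain border, had the highest level per kb of the 36 genes in both groups. It had 727 and 680 reads in ethanol against 703 and 603 with 4-OHT, or 109 ± 4.67 and 97.9 ± 2.88 CPM. Both 4-OHT libraries lay below both ethanol libraries and the counting interval of the ratio excluded 1 (0.896, interval 0.830 to 0.967), but Gbx2 did not pass (log2 fold change -0.16, SE 0.066, limma adjusted p = 0.179). Gbx1 had 3 and 5 reads against 6 and 11 (ratio 2.05, interval 0.839 to 5.49).

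**Figure D4:**
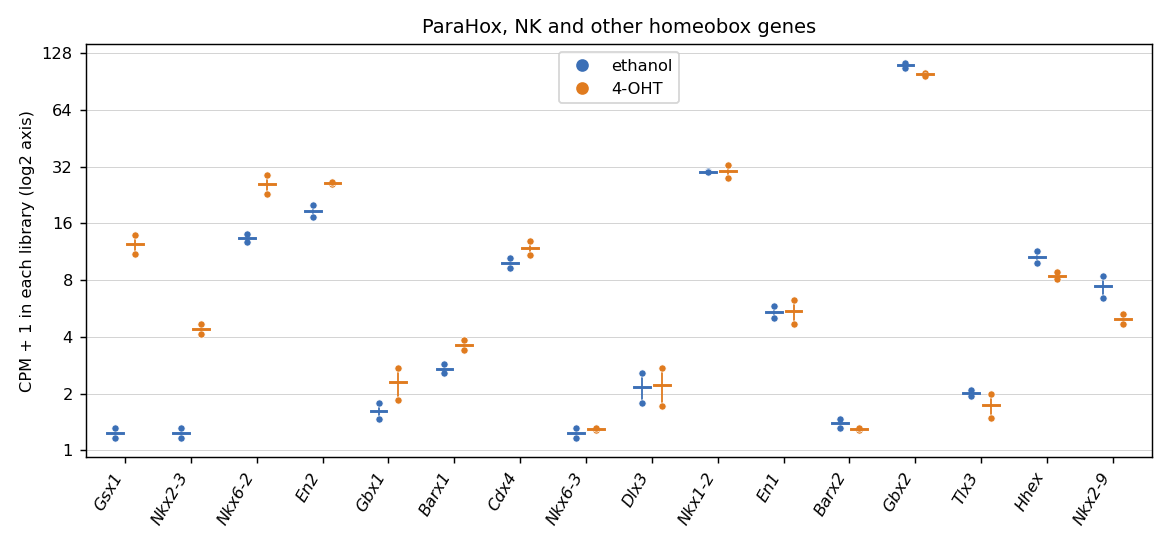
CPM + 1 of the ParaHox, NK and other homeobox genes described singly (vertical axis, log2) in each library, from the highest to the lowest log2 fold change; points are the 2 libraries of ethanol (blue) and of 4-OHT (orange), thick bars their mean. Gsx1 and Nkx2-3 go from under 0.32 CPM in each ethanol library to over 3 CPM in each 4-OHT library, while Gbx2 stays near 100 CPM.

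Compared per kb of exon, which allows levels of different genes to be set side by side, Gbx2 (50.2 CPM per kb) led in ethanol, and Nkx1-2 (8.91) and Nkx6-2 (6.48) were also among the highest. With 4-OHT, Gbx2 (45.0) again led, Nkx6-2 (13.04) stood above Nkx1-2 (8.92), and Hoxb1 (7.56), En2 (7.11), Hoxa5 (6.67), Gsx1 (6.47) and Hoxa2 (6.34) stood close together below them. Hoxa9, Hoxd11 and Hoxb8 were the lowest 3 in ethanol, at 0.0139, 0.0369 and 0.0590 CPM per kb. Their differences in order rest on 1 or 2 reads each and are not resolved at this depth. Lengths are of all annotated exons in GENCODE, not of the transcripts present.

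Some of these genes share exonic bases with an antisense or neighbouring transcript, and how strand was used in counting is not given in the sources used here. Hoxaas2, antisense in the Hox A cluster, shares 503 exonic bases with Hoxa3 and rose with 4-OHT. It had 7 and 8 reads in ethanol against 31 and 34 with 4-OHT (ratio 4.18, interval 2.36 to 7.90; log2 fold change 1.44, SE 0.21, limma adjusted p = 0.00194). Hotairm1, a further antisense transcript of that cluster, had 68 and 71 reads against 82 and 73 and did not pass (limma adjusted p = 0.755). Hoxb3 shares 2250 bases and Hoxb2 953 bases with Hoxb3os, and Hoxa7 shares 586 bases with Hoxaas3, both antisense and not analysed here. Nkx6-2 shares 246 bases with Inpp5a on the opposite strand, which was at 36.0 ± 0.606 and 37.8 ± 0.198 CPM and did not pass. Where such bases are shared, reads of the partners cannot be told apart.

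Genes around the clusters were mostly not past the threshold. Of 12 measured of 20 listed genes that flank or run antisense in the clusters, 2 rose (Hoxaas2 and Calcoco1, near Hox C), 0 fell and 10 did not pass (5.24% and 4.22% of all genes rose and fell), with a median log2 fold change of 0.06. Calcoco1 had 430 and 401 reads in ethanol against 578 and 572 with 4-OHT (log2 fold change 0.42, limma adjusted p = 0.00805). Hibadh, on the far side of Hox A, had 330 and 308 reads against 291 and 237, just missed the threshold in limma (log2 fold change -0.32, limma adjusted p = 0.0509) and was called lower by edgeR (edgeR adjusted p = 0.0154). Skap2, beside Hox A, had 538 and 542 reads in ethanol against 520 and 529 with 4-OHT, and Skap1, beside Hox B, had 9 and 7 against 4 and 7. Mtx2, beside Hox D, had 461 and 377 reads against 428 and 445. None of these 3 flanking genes passed in limma.

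TALE homeodomain proteins bind DNA together with Hox proteins. Of 9 of these cofactor genes, all measured, 2 rose, 1 fell and 6 did not pass (5.24% and 4.22% of all genes rose and fell), with a median log2 fold change of 0.06. Meis2 had 412 and 405 reads in ethanol against 644 and 552 with 4-OHT and was among those that rose, whereas Pknox2 fell, with 253 and 252 reads against 221 and 159. Meis1, with 146 and 154 reads against 230 and 178, did not pass in limma and was called higher by edgeR.

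Of 26 listed chromatin and signalling regulators of Hox genes, 25 were measured. Limma called 5 of them higher and 1 lower, beside 5.24% and 4.22% of all genes tested. The other 19 missed the threshold, and the median log2 fold change of the list was 0.06. Those called higher were Psip1, Rarg, Cyp26a1, Fgf8 and Gdf11. Cyp26a1, which degrades retinoic acid and is induced by it, had 7 and 10 reads in ethanol against 35 and 33 with 4-OHT, and Gdf11, a ligand that promotes posterior Hox expression in the trunk, had 8 and 15 against 29 and 25. Rarb, a retinoic acid receptor gene that retinoic acid itself induces, fell, with 36 and 32 reads against 16 and 7. Fgf8, a posterior growth factor gene, had 137 and 146 reads against 272 and 291. The Polycomb genes of this list (Eed, Suz12, Ezh1, Ezh2, Jarid2, Rnf2, Ring1, Bmi1, Pcgf2, Cbx2 and Cbx7) did not pass in limma, and edgeR called Jarid2 higher and Eed lower. Kmt2a, which encodes the MLL1 methyltransferase that maintains Hox expression, had 619 and 659 reads against 827 and 726 and passed in edgeR (edgeR adjusted p = 0.0241) but not in limma (limma adjusted p = 0.0584).

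Neural tube progenitor genes changed as well. Of 8 measured of 13 listed, 7 rose, among them Sox1, Pax3, Pax6, Neurog1, Neurog3 and Irx3, and Nes fell (5.24% and 4.22% of all genes rose and fell), with a median log2 fold change of 0.85. Sox1 had 589 and 561 reads in ethanol against 1128 and 935 with 4-OHT, Pax3 had 3 and 2 against 23 and 24, and Neurog1 had 1 and 4 against 33 and 18. Their part in the changes of the homeobox genes was not tested.

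ESC markers were high in all libraries: the 8 summed to 3892 and 3758 CPM in ethanol and to 3916 and 4115 CPM with 4-OHT, with 2 higher, 2 lower and 4 not past the threshold. Fibroblasts carry Hox transcripts of their own, so feeder markers were set beside the Hox values. Of 13 measured of 18 listed, 2 rose (Col1a2 and Thy1), 0 fell and 11 did not pass, and their sum was 156 and 161 CPM in ethanol and 188 and 184 CPM with 4-OHT, with 0 of the 13 at 0 in all libraries. The largest of these changes was that of Col1a2, with 127 and 141 reads against 334 and 267, while Col1a1 had 310 and 297 against 357 and 289. Of the other markers, 0 of 6 primitive endoderm, 1 of 5 streak and mesoderm (Kdr) and 0 of 6 trophoblast genes rose in limma, and T and Krt8 fell (for each marker list, beside 5.24% and 4.22% of all genes that rose and fell). In these lists edgeR also called Sox7 higher (edgeR adjusted p = 0.0201) and Gata3 lower (edgeR adjusted p = 0.0357). The part of any of these cells in the Hox reads was not tested.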

How the data were processed

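PolyA RNA of 4 libraries was measured. The submitters' processing notes name the tools HISAT2, Trimmomatic, FastQC and edgeR, and mm10, without versions; neither counter, annotation nor strand setting is stated there. The authors deposited mean CPM per group, an adjusted p-value and a log2 fold change. The last 2 columns were left aside, as their rows do not belong to the genes beside them: with genes ordered by Entrez number as text, the deposited p-value went down at 0 of 14381 steps, and their fold changes do not follow the means (Spearman's rho 0.0159 across genes).

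Each mean was resolved into whole reads of both libraries, since 1 read adds a fixed amount per library. Both steps were fitted from low values, and 100% of the 14382 values in each of the authors' CPM columns came out whole to the printed digits. Of 3000 values per column moved at random by less than the worth of a read, 0% came out whole. The recovery was also run on simulated data of the same means, with an outcome not given here. Of the genes, 6 with several possible pairs were left out and 14376 tested.

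The main test was limma-trend 3.58.1 (R 4.3.3) on log2(CPM + 1), two-sided, Benjamini-Hochberg over all tested genes, threshold 0.05, no filter. Every limma, edgeR or DESeq2 adjusted p is so adjusted. In simulated data of this comparison with 14376 genes, limma called 33 of 50 genes changed 2-fold and 44 of 50 changed 4-fold, with 0 false calls (edgeR 7). The changed genes were drawn from nearly all levels with a single small spread, so these rates do not describe the mostly low homeobox genes. The edgeR 4.0.16 quasi-likelihood test (genes kept by filterByExpr, library sizes as implied by the deposited CPM) and DESeq2 1.42.0 ran on recovered reads. Ratios are of summed reads scaled to library size with exact conditional binomial intervals (Clopper-Pearson, 95%), which cover counting error only. Full statistics are given for the 10 called homeobox genes with the largest absolute log2 fold change, and reads for the other Hox and called genes; further genes were singled out after their values were seen. Cell type markers and lists were written from general knowledge. Some genes are counted but not reported singly here, and the rank correlations leave them out. Members and lists were chosen with earlier results of these data known. Positions are GENCODE M21 and RefSeq on GRCm38 (mm10), 1-based.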

Additional observations from a re-analysis of the deposited data

How the results depend on the processing

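The count of homeobox genes that rose (15) and that of Hox genes (11) were 7 and 4 with DESeq2 and 8 and 5 at a threshold of 0.01. Among all genes, DESeq2 called 385 higher and 319 lower, and 356 and 282 passed at 0.01. The 606 genes lower became 989 in edgeR, 981 with a minimum mean of 1 CPM and 959 at a threshold of 0.1. Leaving out each library in turn, limma called 0 to 14 homeobox, 0 to 10 Hox and 0 to 626 of all genes higher and 0 to 461 of all genes lower, the 0 being without either 4-OHT library. In edgeR these ranges were 13 to 15, 9 to 11, 662 to 953 and 579 to 829. The homeobox genes called lower were 0 to 1 in edgeR (Nkx2-9 without ethanol library B) and the Hox genes 0. Size factors of DESeq2 or TMM in limma changed no homeobox call.

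The homeobox genes whose log2 fold change turned sign, given next, were not past the threshold in the main limma test. In edgeR and DESeq2, Nkx1-2 (0.0075 and 0.0049) and En1 (0.022 and 0.014) turned positive. Leaving out a library, in limma or edgeR, gave ranges that include 0 of -0.10 to 0.44 (Hoxa4), -0.19 to 0.33 (Hoxc4), -0.54 to 0.35 (Hoxc13), -0.70 to 0.62 (Dlx3), -0.12 to 0.12 (Nkx1-2), -0.012 to 0.17 (Nkx6-3) and -0.28 to 0.25 (En1). The cause of these changes was not tested. Alternatives with edgeR and a library left out were chosen after seeing the data. No paired analysis was possible because the columns carry no replicate numbers. All 36 genes had a single possible pair of reads, so the alternative for unclear pairs was not run. Depth limits genes under about 10 reads.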
